A study of Homo sapiens with 6 samples.

Results

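The genes described here encode the proteasome: its subunits, its activators, its inhibitor and the factors that assemble it. They were taken as every row of the deposited expression table whose symbol is PSM, a letter from A to G and a number, which gave 48 of 20297 genes. Of these, 8 were PSMA, 11 PSMB, 6 PSMC, 14 PSMD, 4 PSME, 1 PSMF and 4 PSMG genes. A filter of at least 1 TPM (transcripts per 1000000) in at least 2 libraries passed 46 of the 48.

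Polyadenylated RNA was sequenced from 22Rv1, an established human prostate carcinoma cell line that can grow without androgen and expresses the androgen receptor. The cells received vehicle, Drug_0120 (also written 0120-0018) or Drug_CN27, with 2 libraries in each of the 3 groups. Both compounds are small molecules described as inhibitors of the linker histone H1-10, which the table lists as H1FX, and the study set treated cells against untreated ones. Each compound was used at its own IC50, a standard inhibitory concentration. The sources used here do not give its value, the treatment times or the vehicle, so nothing shows that the doses match. All groups share the same line, with no genetic change named in the labels, and nothing says whether the libraries of a group came from separate cultures.

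The proteasome degrades proteins that carry ubiquitin chains. Its core is a barrel of stacked rings: PSMA subunits form the outer rings that gate the entrance, and PSMB subunits form the inner rings, some of which carry the proteolytic sites. A regulatory particle caps the barrel, with PSMC ATPases that unfold the substrate and PSMD subunits that bind and remove ubiquitin, while PSME proteins are alternative caps. Cells that lose proteasome activity are known to raise these genes together through the transcription factor NFE2L1. In prostate cancer cells the androgen receptor is among its known substrates.

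The depth behind these values is unknown, because TPM does not preserve it, and counting error therefore has no interval here. Values were compared with limma on log2(TPM + 1), with p-values adjusted over all 13606 tested genes and a threshold of 0.05; a gene is said to rise or fall only where it passed. Changes of low genes are understated on that scale. Genes outside the table held 18.1 to 19.3% of the TPM in vehicle, 28.0 to 28.8% with Drug_0120 and 18.3 to 19.6% with Drug_CN27. The median change over all tested genes was -0.10 on the log2 scale with Drug_0120, 0.15 with Drug_CN27 and 0.26 for Drug_CN27 against Drug_0120, and class medians are given relative to these. All 8 luminal prostate markers were at 1 TPM or more in all libraries, with summed levels of 2590.2 to 2601 TPM in vehicle, 1633 to 1644 TPM with Drug_0120 and 2969.7 to 2985 TPM with Drug_CN27. The 3 basal markers were under 1 TPM in all libraries, and so were 2 of 3 leukocyte markers (PTPRC and CD3E) and both endothelial markers in the table. With CD68 the leukocyte markers summed to 0.602 to 0.689 TPM in vehicle, 2.21 to 2.92 TPM with Drug_0120 and 0.391 to 0.718 TPM with Drug_CN27. Of 4 fibroblast markers, summing to 25.1 to 31.3 TPM, 1 was under 1 TPM in every library; the part of these marker levels in the results was not tested. The targeted gene H1FX had means of 457 TPM in vehicle, 184 TPM with Drug_0120 and 417 TPM with Drug_CN27; it fell with Drug_0120 and did not pass the test with Drug_CN27 (limma adjusted p = 0.0918).

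In vehicle the tested proteasome genes were among the abundant transcripts. Their mean levels ran from 2.13 TPM (PSMB8) to 772 TPM (PSMB4), with a median of 135 TPM. PSMB4, a structural core subunit, was above 99.4% of the genes in the table. The class medians in vehicle were 171 TPM for PSMA, 261 TPM for PSMB, 160.4 TPM for PSMC, 127 TPM for PSMD, 181 TPM for PSME and 46.9 TPM for PSMG. The least abundant members were the immunoproteasome subunits PSMB8, PSMB9 and PSMB10, at means of 2.13, 4.25 and 21.4 TPM. Both untested members have tissue-restricted roles. PSMA8, the core subunit of male germ cells, was listed at 0 TPM in all 6 libraries. PSMB11, the core subunit of thymic cortical epithelium, was listed at 0 TPM in both vehicle libraries, at 0.279 and 0.228 TPM with Drug_0120 and at 0.157 and 0 TPM with Drug_CN27.

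With Drug_0120, most of the family fell: 37 of 46 tested proteasome genes were lower than in vehicle, 4 were higher and 5 did not pass the test. Over all tested genes, 81.5% were called, 45.5% lower and 36.0% higher, so that the shares of proteasome genes were 80.4% lower and 8.70% higher. Falls of at least 2-fold on the log2(TPM + 1) scale were seen in 9 of the 46 members, a share not above the 20.2% of all genes. These were PSMA6, PSMB3, PSMB6, PSMB9, PSMC3, PSMD1, PSMD6, PSME1 and PSME2. No member rose 2-fold, against 11.5% of all genes. The 4 that rose were the ATPase PSMC2, the lid subunits PSMD7 and PSMD12, and PSMD10, a chaperone of base assembly; the count higher was 8 with quantile normalization and 2 without Drug_0120 replicate 2. The median change of the 46 was -0.50, which is -0.40 relative to all genes and -0.32 to -0.41 relative to them under the other scalings and the correction for GC content. In all 5 scalings tried (TPM as deposited, median of ratios, quantile, equal table sum and GC correction), 25 genes were lower and 2, PSMD7 and PSMD12, higher. The share of all tested genes called in all 5 was not counted, so this count has nothing to be set against. Summed over the family, vehicle levels were 7611 and 7860.0 TPM and Drug_0120 levels 5149 and 5308 TPM, and the groups did not overlap. In bulk RNA, fewer cells of a type and less RNA per cell cannot be told apart.

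With Drug_CN27 the family was split: 14 of the 46 genes rose, 16 fell and 16 did not pass the test, and none moved 2-fold, against 7.33% of all genes 2-fold higher and 4.82% 2-fold lower. Of all tested genes 70.4% were called, 43.7% higher and 26.6% lower, against 30.4% higher and 34.8% lower among proteasome genes. The median change was -0.04, or -0.19 relative to all genes. The summed level was 7663 and 7992 TPM, which overlaps the range of vehicle. The count of 14 higher was 6 with median-of-ratios scaling and 9 with the GC correction, where 24 and 23 were lower. In all 5 scalings 6 were higher and 16 lower, again with no share of all genes counted.

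**Figure D1:**
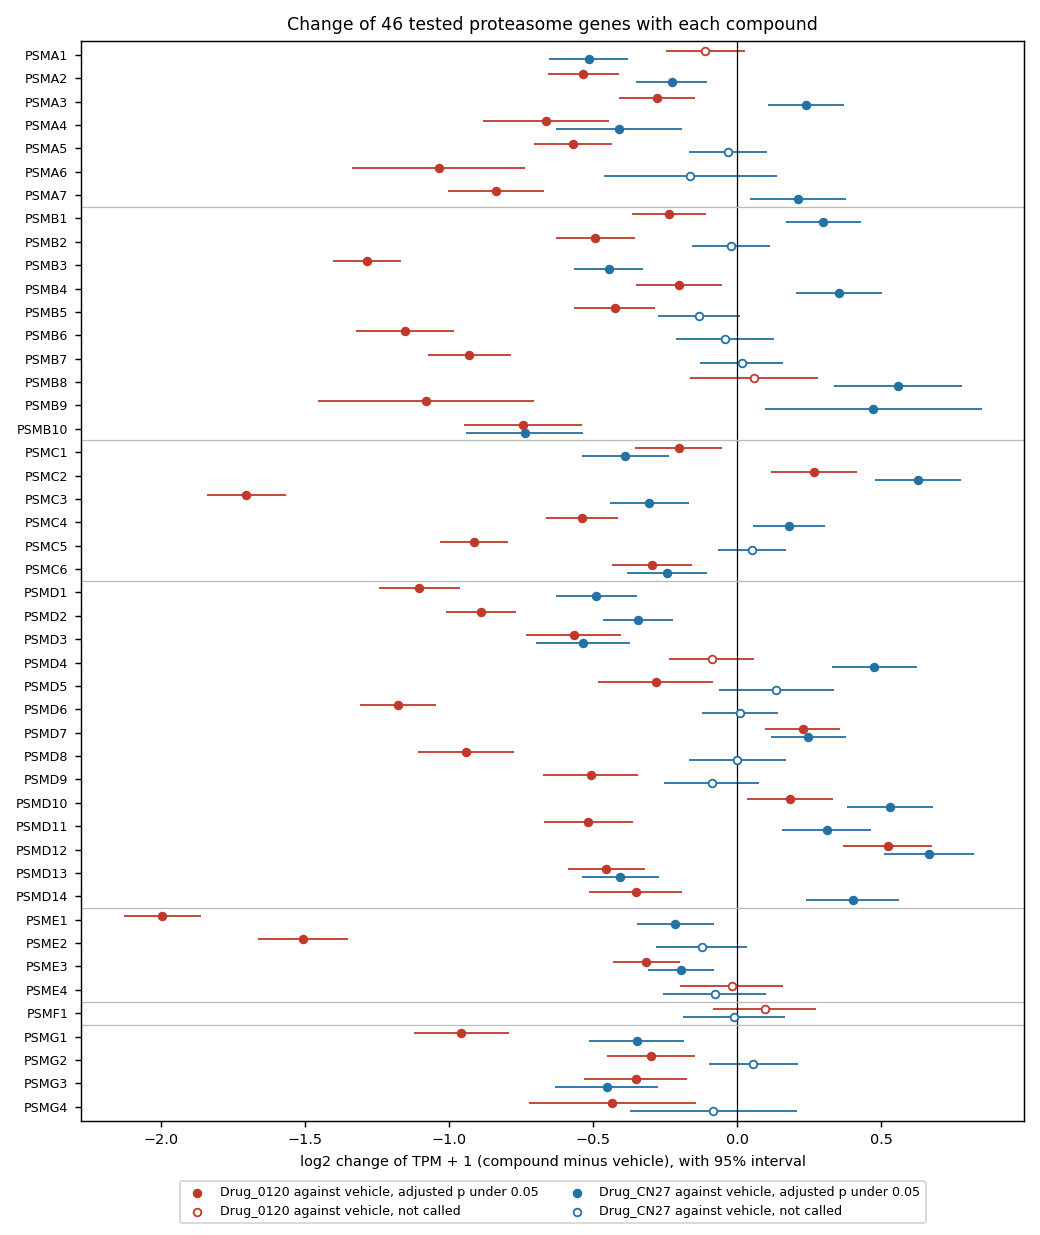
Change of each of the 46 tested proteasome genes against vehicle, on the log2(TPM + 1) scale, with its 95% interval; filled points passed the adjusted p of 0.05 and open points did not, and grey lines separate the classes. Most red points (Drug_0120) lie left of 0, with PSME1, PSMC3 and PSME2 farthest, while blue points (Drug_CN27) lie on both sides, between -0.74 (PSMB10) and 0.67 (PSMD12).

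The members farthest apart with Drug_0120 were PSME1, PSMC3 and PSME2 at the low end and PSMD12 at the high end, and their promoters are shown here to set genes that moved oppositely side by side. Each is the 250 bases before the RefSeq start on GRCh38.p14, read 5′ to 3′ on the gene's strand; capitals mark TGACNNNGC, the core of the antioxidant response element that NFE2L1 and NFE2L2 are known to bind with small MAF proteins. PSME1 (chr14:24135944-24136193, plus strand) and PSME2 (chr14:24146611-24146860, minus strand) are neighbours, PSMC3 lies at chr11:47426440-47426689 on the minus strand, and PSMD12 lies at chr17:67366578-67366827 on the minus strand.
PSME1: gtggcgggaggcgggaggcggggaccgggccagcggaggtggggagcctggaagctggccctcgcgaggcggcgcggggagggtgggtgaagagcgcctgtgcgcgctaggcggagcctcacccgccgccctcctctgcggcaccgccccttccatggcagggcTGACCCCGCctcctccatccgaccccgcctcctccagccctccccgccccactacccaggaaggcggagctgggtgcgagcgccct
PSME2: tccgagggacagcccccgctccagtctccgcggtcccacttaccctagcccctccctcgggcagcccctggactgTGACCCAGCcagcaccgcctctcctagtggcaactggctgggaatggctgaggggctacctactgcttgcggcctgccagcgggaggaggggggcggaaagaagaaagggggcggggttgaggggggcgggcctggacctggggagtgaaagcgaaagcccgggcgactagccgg
PSMC3: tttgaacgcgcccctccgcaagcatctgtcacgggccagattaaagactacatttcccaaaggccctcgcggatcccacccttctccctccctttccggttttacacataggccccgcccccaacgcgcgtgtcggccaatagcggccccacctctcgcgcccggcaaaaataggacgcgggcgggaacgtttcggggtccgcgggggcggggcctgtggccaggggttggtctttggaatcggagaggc
PSMD12: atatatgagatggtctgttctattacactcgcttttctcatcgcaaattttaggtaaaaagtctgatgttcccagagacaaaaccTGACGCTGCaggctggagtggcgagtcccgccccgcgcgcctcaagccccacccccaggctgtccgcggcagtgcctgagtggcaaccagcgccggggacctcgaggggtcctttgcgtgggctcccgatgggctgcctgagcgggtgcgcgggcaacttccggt

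The word TGACCCCGC starts 86 bases before the PSME1 start, TGACCCAGC 175 bases before that of PSME2 and TGACGCTGC 165 bases before that of PSMD12, while the PSMC3 window holds no match. Promoters were found for 42 of the 48 genes, and 13 of the 42 (31.0%) held TGACNNNGC on either strand, against 13.2% of 27305 genes. Those are all genes with a RefSeq promoter, tested here or not, and were not matched for level or GC content. CCAAT, the box bound by NF-Y, was found in 45.2% of the members and 37.0% of all genes. CCGGAAG, the core bound by ETS factors, was found in 26.2% of the members and 10.2% of all genes; none of the 3 words contains another. Of the 13 genes with TGACNNNGC, all tested, 11 fell and 1 rose with Drug_0120. Of the 27 tested genes without it, 21 fell and 3 rose. With Drug_CN27 the same sets had 5 lower and 2 higher of 13, and 10 lower and 9 higher of 27. Genes with and without the word thus lie on both sides of the vehicle level.

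**Figure D2:**
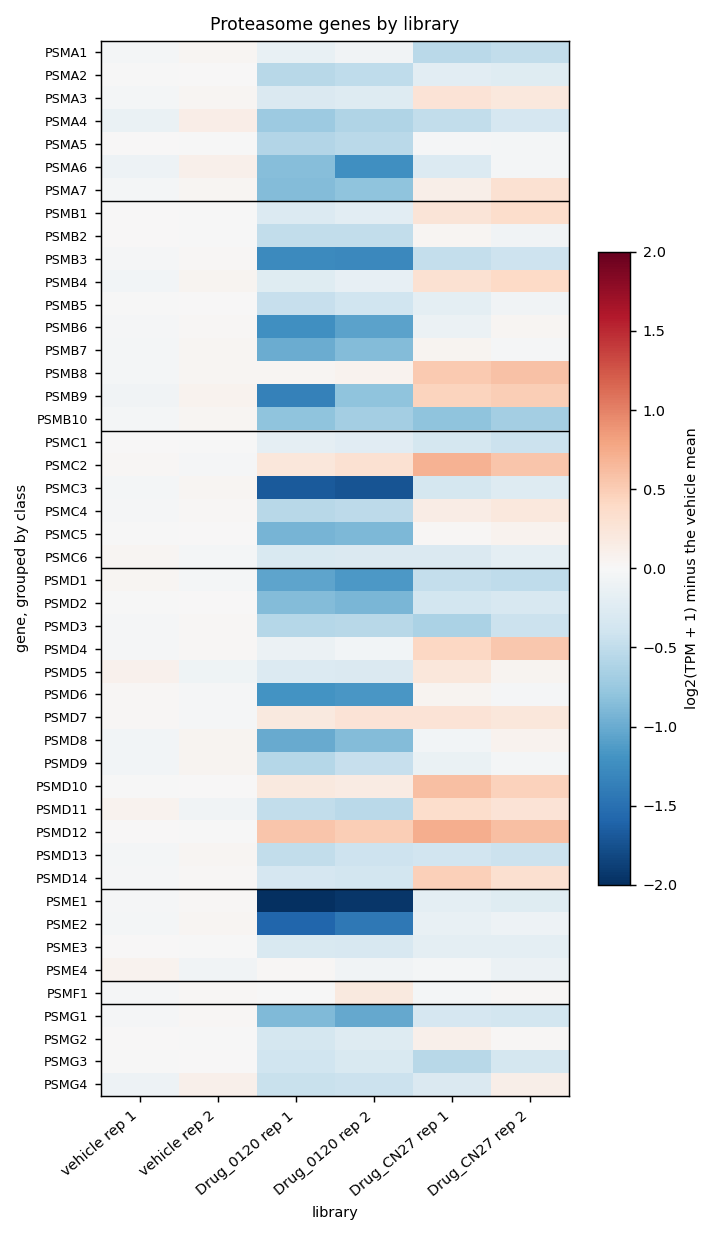
Level of each tested proteasome gene (rows, grouped by class) in each of the 6 libraries (columns), as log2(TPM + 1) minus the vehicle mean; blue is below vehicle and red above, on a scale from -2 to 2. Both Drug_0120 libraries are blue in most rows, and both Drug_CN27 libraries mix red and blue rows.

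The PSMA subunits form the outer rings of the core and its gate. With Drug_0120 they fell in 6 of 7 tested genes (85.7%), against 45.5% of all genes. Their median change was -0.57 (-0.47 relative to all genes). PSMA6, which stands between PSMA2 and PSMA3 in the ring, had 202 and 235 TPM in vehicle, 121 and 92.6 TPM under Drug_0120 and 179 and 211 TPM under Drug_CN27. Its Drug_0120 libraries lay below the rest, and the Drug_CN27 values overlapped those of vehicle. The fall with Drug_0120 was -1.03 ± 0.13 (SE) with an adjusted p of 8.33e-05 by limma, in a gene with 4 named pseudogenes that can share its reads.
PSMA1, a subunit of the same ring, had 159.6 and 169 TPM in the vehicle libraries, 148 and 157 TPM in the Drug_0120 libraries and 113 and 116 TPM in the Drug_CN27 libraries. It fell with Drug_CN27 by a log2 change of -0.52 ± 0.06 (adjusted p = 9.03e-05) and did not pass the test with Drug_0120, where the 95% interval was -0.25 to 0.03 and it was called higher with quantile normalization (0.18, adjusted p = 0.0137). The difference between the compounds was -0.40 ± 0.06 (adjusted p = 0.000284), 1 of only 2 such falls in the family.
Its ring neighbour PSMA3 had 165 and 176 TPM (vehicle), 139 and 142 TPM (Drug_0120) and 206 and 198 TPM (Drug_CN27). It fell with Drug_0120 (-0.28 ± 0.06, adjusted p = 0.00175) and rose with Drug_CN27 (0.24 ± 0.06, adjusted p = 0.0053). The first value was 0.0033 with quantile normalization and -0.10 with an equal table sum (adjusted p = 0.958 and 0.137). The second was 0.06 with median-of-ratios scaling and -0.05 with the GC correction (adjusted p = 0.427 and 0.555), and no longer passed with vehicle replicate 1 left out (adjusted p = 0.0624). PSMA7 likewise fell with Drug_0120 (-0.84) and rose with Drug_CN27 (0.21), but without Drug_CN27 replicate 2 the rise was 0.12 (adjusted p = 0.138), and it was also lost without vehicle replicate 1, with median-of-ratios scaling (0.03) and with the GC correction (0.13). With Drug_CN27 the other PSMA genes were PSMA2 and PSMA4, which fell (-0.23 and -0.41), and PSMA5 and PSMA6, which did not pass. PSMA5 was called lower there with median-of-ratios scaling (-0.21, adjusted p = 0.0148) and with the GC correction (-0.37, adjusted p = 0.00221).

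Of the 10 tested PSMB genes, 9 fell with Drug_0120, with a median of -0.62 (-0.51 relative to all genes), and 4 rose and 2 fell with Drug_CN27. PSMB3, a structural subunit of the inner ring, had 328 and 336 TPM in vehicle, 136 and 135 TPM under Drug_0120 and 239 and 248 TPM under Drug_CN27. Both compounds lay below vehicle, Drug_0120 further. Its change was -1.28 ± 0.05 with Drug_0120 (adjusted p = 7.97e-08) and -0.45 ± 0.05 with Drug_CN27 (adjusted p = 9.24e-05). PSMB4 and PSMB1, the most abundant members, moved apart. PSMB4 had 741 and 803 TPM (vehicle), 653 and 689.5 TPM (Drug_0120) and 951 and 1022 TPM (Drug_CN27), with a change of -0.20 with Drug_0120 and 0.35 with Drug_CN27. PSMB1 was at a change of -0.24 with Drug_0120 and 0.30 with Drug_CN27. All 4 passed the test as deposited, but neither Drug_0120 fall passed with median-of-ratios scaling, quantile normalization or an equal table sum. With quantile normalization those values were 0.0075 for PSMB4 and 0.11 for PSMB1. With median-of-ratios scaling the rises with Drug_CN27 were 0.17 for PSMB4 and 0.12 for PSMB1 (adjusted p = 0.0851 and 0.147), and the rise of PSMB1 was 0.14 with the GC correction (adjusted p = 0.0568). The Drug_0120 fall of PSMB4 no longer passed when vehicle replicate 2 (adjusted p = 0.159) or Drug_0120 replicate 1 (adjusted p = 0.117) was left out.

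The 3 standard catalytic subunits all fell with Drug_0120, and none passed the test with Drug_CN27. PSMB6, with caspase-like activity, had 303 and 311 TPM in the vehicle libraries, 131 and 145 TPM in the Drug_0120 libraries and 282 and 316 TPM in the Drug_CN27 libraries. The trypsin-like subunit PSMB7 had 227 and 237 TPM in vehicle, 117 and 126 TPM under Drug_0120 and 242 and 228 TPM under Drug_CN27. For the chymotrypsin-like PSMB5, the main target of proteasome inhibitors used in the clinic, levels were 289 and 290.3 TPM (vehicle), 211 and 220.3 TPM (Drug_0120) and 252 and 277 TPM (Drug_CN27). In all 3 the Drug_0120 libraries lay below both other groups. The changes with Drug_0120 were -1.15 ± 0.07 for PSMB6 (adjusted p = 1.11e-06), -0.93 ± 0.06 for PSMB7 (adjusted p = 1.53e-06) and -0.42 ± 0.06 for PSMB5 (adjusted p = 0.000205). With Drug_CN27 the 95% intervals were -0.21 to 0.13, -0.13 to 0.16 and -0.27 to 0.01 in the same order; without Drug_CN27 replicate 2, PSMB5 was called lower (-0.20, adjusted p = 0.0166). The fall of PSMB5 with Drug_0120 was -0.09 with quantile normalization and did not pass there (adjusted p = 0.157). With Drug_CN27, median-of-ratios scaling called PSMB5 and PSMB6 lower (-0.31 and -0.22, adjusted p = 0.00494 and 0.0489), and the GC correction called PSMB5 lower (-0.24, adjusted p = 0.0041).

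Their inducible counterparts, which replace them in the immunoproteasome under interferon, each followed another course. PSMB8, the counterpart of PSMB5, had 2.04 and 2.22 TPM in vehicle, 2.23 and 2.30 TPM under Drug_0120 and 3.52 and 3.71 TPM under Drug_CN27. It rose with Drug_CN27 (0.56 ± 0.10, adjusted p = 0.000935) and did not pass with Drug_0120 (-0.16 to 0.28), where it was called higher with quantile normalization (0.35) and the GC correction (0.34). PSMB9, the counterpart of PSMB6, had 4.01 and 4.50 TPM in the vehicle libraries, 1.06 and 1.99 TPM in the Drug_0120 libraries and 6.16 and 6.41 TPM in the Drug_CN27 libraries. The Drug_0120 libraries were lowest and did not lie close together. It fell with Drug_0120 (-1.08 ± 0.16, adjusted p = 0.000268) and rose with Drug_CN27 (0.47 ± 0.16, adjusted p = 0.0293), a rise that did not pass with vehicle replicate 1 left out or with either Drug_CN27 library left out (adjusted p from 0.0886 to 0.115), or with median-of-ratios scaling, quantile normalization or the GC correction (0.129, 0.188 and 0.0601). PSMB10, the counterpart of PSMB7, had 20.8 and 22.0 TPM (vehicle), 11.8 and 13.0 TPM (Drug_0120) and 11.9 and 13.0 TPM (Drug_CN27). Both compounds lay below vehicle and overlapped each other, at changes of -0.74 ± 0.09 (adjusted p = 5.76e-05) and -0.74 ± 0.09 (adjusted p = 0.000113). With the GC correction the changes were -0.24 and -0.70, and the difference between the compounds passed the test (-0.46, adjusted p = 0.00026). PSMB8 and PSMB9 overlap each other, PSMB8-AS1 and TAP1 in the annotation, and without a stated strand setting their reads cannot be told apart, so these values are uncertain.

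Set against its standard partner within each library, PSMB8 made up 0.702 and 0.760% of the PSMB8 and PSMB5 pair in vehicle, 1.05 and 1.03% with Drug_0120 and 1.38 and 1.32% with Drug_CN27. The PSMB9 share of its pair with PSMB6 was 1.31 and 1.42% in vehicle, 0.807 and 1.35% with Drug_0120 and 2.14 and 1.99% with Drug_CN27. The PSMB10 share of its pair with PSMB7 was 8.39 and 8.49% in vehicle, 9.18 and 9.34% with Drug_0120 and 4.69 and 5.41% with Drug_CN27. The standard subunit thus held most of each pair in all libraries; Drug_CN27 libraries lay above vehicle for PSMB8 and PSMB9 and below it for PSMB10.

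**Figure D3:**
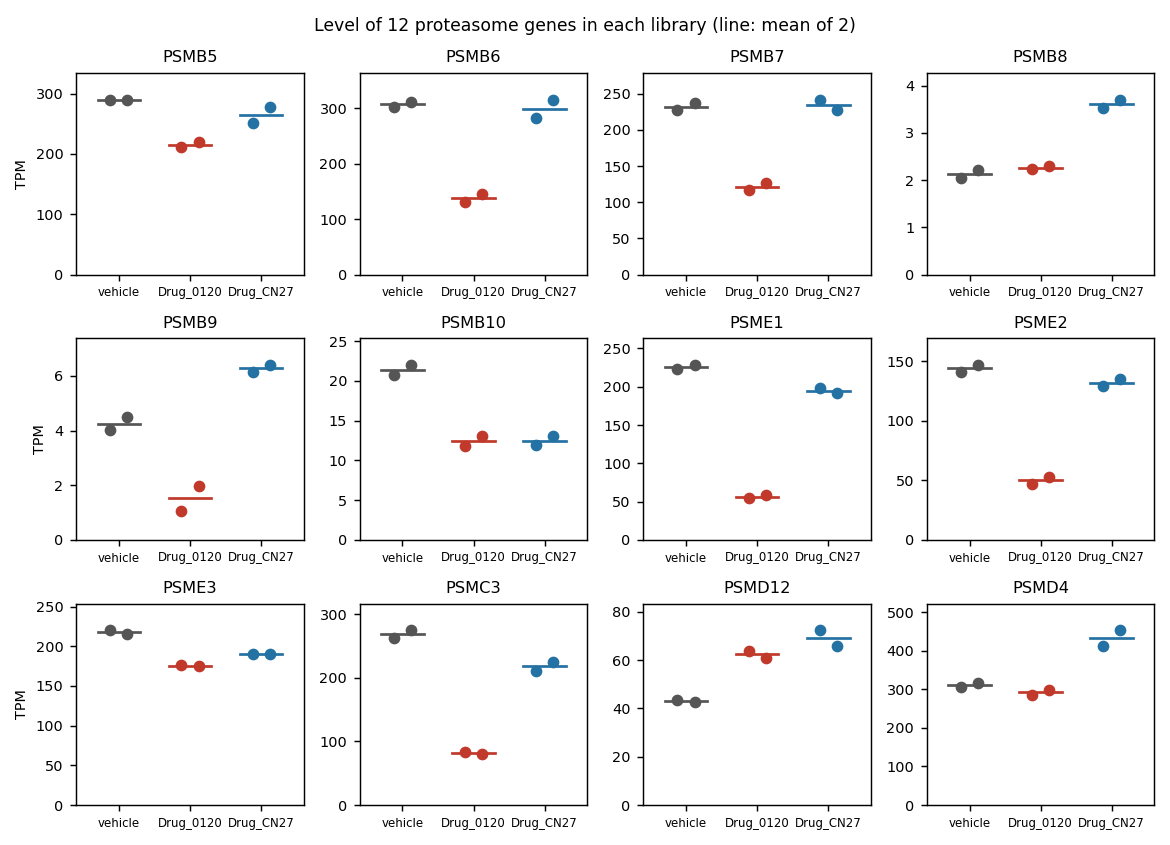
TPM of 12 proteasome genes in the 2 vehicle (grey), 2 Drug_0120 (red) and 2 Drug_CN27 (blue) libraries, 1 point a library, with a line at the mean; each panel has its own axis from 0. PSMB6, PSMB7, PSMC3, PSME1 and PSME2 are lowest under Drug_0120, PSMB10 is low with both compounds, and PSMD12 is high with both.

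All 6 ATPases were called with Drug_0120, 5 lower and 1 higher, with a median of -0.42 (-0.31 relative to all genes); with Drug_CN27 3 fell and 2 rose. PSMC3 had 263 and 275 TPM in vehicle, 83.4 and 80.6 TPM under Drug_0120 and 210.3 and 226 TPM under Drug_CN27. Drug_0120 libraries held less than any other library by a wide margin. The fall was -1.70 ± 0.06 with Drug_0120 (adjusted p = 3.98e-08) and -0.30 ± 0.06 with Drug_CN27 (adjusted p = 0.00185). PSMC2, another ATPase of the same ring, had 125 and 121 TPM in the vehicle libraries, 144 and 152 TPM in the Drug_0120 libraries and 199.7 and 182 TPM in the Drug_CN27 libraries. It rose with Drug_0120 (0.27 ± 0.07, adjusted p = 0.0044) and with Drug_CN27 (0.63 ± 0.07, adjusted p = 4.73e-05), but with the GC correction the first was 0.11 and not called (adjusted p = 0.106) and the second 0.31. PSMC1 had 41.6 and 41.5 TPM (vehicle), 36.6 and 35.3 TPM (Drug_0120) and 32.4 and 30.7 TPM (Drug_CN27), with changes of -0.20 ± 0.07 (adjusted p = 0.0187) and -0.39 ± 0.07 (adjusted p = 0.000803). Its fall with Drug_0120 lost the call without any 1 of the 4 libraries compared (adjusted p from 0.0511 to 0.113) and with median-of-ratios scaling, quantile normalization or an equal table sum (-0.08, -0.12 and -0.02), and its 13 named pseudogenes make its level uncertain. PSMC4 fell with Drug_0120 (-0.54) and rose with Drug_CN27 (0.18), a rise that did not pass when either vehicle library was left out (adjusted p = 0.118 and 0.0572) and was 0.0013 with median-of-ratios scaling (adjusted p = 0.988). PSMC5 fell with Drug_0120 (-0.91) and PSMC6 with both compounds (-0.30 and -0.24); the fall of PSMC6 with Drug_CN27 was lost without vehicle replicate 1 (adjusted p = 0.0627). With Drug_0120 the change of PSMC6 was -0.09 with quantile normalization and -0.12 with an equal table sum, and neither passed (adjusted p = 0.184 and 0.107).

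Among the 14 PSMD genes, 10 fell (71.4%) and 3 rose (21.4%) with Drug_0120, against 45.5% and 36.0% of all genes. Their median was -0.48 (-0.38 relative to all genes). With Drug_CN27, 6 rose (42.9%) and 4 fell (28.6%), near the 43.7% and 26.6% of all genes. PSMD6, a lid subunit, fell most with Drug_0120. It had 132 and 129 TPM in vehicle, 56.6 and 57.8 TPM under Drug_0120 and 135 and 128 TPM under Drug_CN27, so the Drug_0120 libraries lay far below both other groups and the Drug_CN27 libraries overlapped vehicle. The change was -1.18 ± 0.06 with Drug_0120 (adjusted p = 2.2e-07) and had an interval of -0.12 to 0.14 with Drug_CN27; 3 antisense genes overlap it. PSMD12, another lid subunit, had 43.7 and 42.8 TPM in the vehicle libraries, 64.0 and 61.1 TPM in the Drug_0120 libraries and 72.5 and 66.0 TPM in the Drug_CN27 libraries. It rose with both compounds, 0.52 ± 0.07 (adjusted p = 9.69e-05) and 0.67 ± 0.07 (adjusted p = 4.33e-05), in all 5 scalings tried, the second at 0.34 with the GC correction. PSMD3, a lid subunit as well, had 239 and 246 TPM (vehicle), 162 and 164 TPM (Drug_0120) and 155 and 179 TPM (Drug_CN27). It fell with both, -0.57 ± 0.07 (adjusted p = 8.24e-05) and -0.53 ± 0.07 (adjusted p = 0.000208). With the GC correction these were -0.12 (adjusted p = 0.0389) and -0.51, and with quantile normalization the first was -0.26.

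The large base scaffolds PSMD1 and PSMD2 fell with both compounds, by changes of -1.10 and -0.89 with Drug_0120 and -0.49 and -0.34 with Drug_CN27. PSMD14, the deubiquitinase that strips chains from substrates, and PSMD7, its partner, differed. PSMD14 had 56.6 and 58.8 TPM in vehicle, 45.4 and 44.5 TPM under Drug_0120 and 80.8 and 72.4 TPM under Drug_CN27, a fall with Drug_0120 (-0.35 ± 0.07, adjusted p = 0.00143) and a rise with Drug_CN27 (0.40 ± 0.07, adjusted p = 0.000958). The fall was -0.17 with an equal table sum (adjusted p = 0.0541), and the rise was 0.22 with median-of-ratios scaling and 0.19 with the GC correction. PSMD7 had 141 and 136 TPM (vehicle), 158 and 167 TPM (Drug_0120) and 168 and 162 TPM (Drug_CN27) and rose with both (0.23 ± 0.06 and 0.25 ± 0.06, adjusted p = 0.00511 and 0.0043); the rise with Drug_0120 was lost without Drug_0120 replicate 2 (adjusted p = 0.0545). The rise of PSMD7 with Drug_CN27 was 0.07 with median-of-ratios scaling and 0.05 with the GC correction, and neither passed (adjusted p = 0.339 and 0.375). The ubiquitin receptor PSMD4 had 305 and 316 TPM in the vehicle libraries, 285 and 299 TPM in the Drug_0120 libraries and 412 and 454 TPM in the Drug_CN27 libraries. It rose with Drug_CN27 (0.48 ± 0.06, adjusted p = 0.000205) and did not pass with Drug_0120 (-0.23 to 0.06, but called higher at 0.26 with quantile normalization), and with median-of-ratios scaling the rise with Drug_CN27 was 0.30.
PSMD5, PSMD9 and PSMD10 are not part of the finished particle but chaperones of its base. PSMD10 rose with Drug_0120 (0.18, adjusted p = 0.0273) and with Drug_CN27 (0.53), and the first rise did not pass with any 1 of the 4 libraries compared left out (adjusted p from 0.0775 to 0.121) or with the GC correction (0.0792). The second rise was 0.35 with median-of-ratios scaling and 0.26 with the GC correction. PSMD9 and PSMD5 fell with Drug_0120 (-0.51 and -0.28), and neither passed with Drug_CN27; the fall of PSMD5 was lost without vehicle replicate 1 or Drug_0120 replicate 2, and with median-of-ratios scaling or an equal table sum (-0.16 and -0.11). With Drug_CN27, PSMD9 was called lower with median-of-ratios scaling and the GC correction (-0.26 and -0.20), and PSMD5 with the GC correction (-0.14). The remaining PSMD genes were PSMD8, PSMD11 and PSMD13, all lower with Drug_0120 (-0.94, -0.52 and -0.45), of which PSMD11 rose and PSMD13 fell with Drug_CN27 (0.31 and -0.41). The rise of PSMD11 was 0.13 with median-of-ratios scaling (adjusted p = 0.0903), and the fall of PSMD13 with Drug_0120 was -0.17 with quantile normalization.

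Of the alternative caps, PSME1 had the largest fall of the family with Drug_0120. The fall of PSME2 came after that of the ATPase PSMC3, and PSME3 and PSME4 changed far less. PSME1 and PSME2 together form an interferon-inducible ring that opens the core without ATP, and their promoters are printed above. PSME1 had 224 and 229 TPM in vehicle, 54.1 and 58.0 TPM under Drug_0120 and 198 and 192 TPM under Drug_CN27. PSME2 had 141 and 147 TPM in the vehicle libraries, 47.3 and 52.9 TPM in the Drug_0120 libraries and 129.6 and 135 TPM in the Drug_CN27 libraries. In both, the Drug_0120 libraries lay far below the others, and the Drug_CN27 libraries were just under vehicle. PSME1 changed by -1.99 ± 0.06 with Drug_0120 (adjusted p = 1.8e-08) and by -0.21 ± 0.06 with Drug_CN27 (adjusted p = 0.0101, lost without vehicle replicate 2 at 0.0732). PSME2 changed by -1.51 ± 0.07 with Drug_0120 (adjusted p = 1.47e-07) and did not pass with Drug_CN27 (-0.28 to 0.03), though it was called lower with median-of-ratios scaling (-0.30, adjusted p = 0.00829). PSME1 overlaps EMC9 and PSME2 overlaps RNF31 on the opposite strand. PSME3, which forms a nuclear cap by itself, had 221 and 216 TPM (vehicle), 176 and 175 TPM (Drug_0120) and 191 and 191 TPM (Drug_CN27). Its falls were smaller, -0.31 ± 0.05 with Drug_0120 (adjusted p = 0.000391) and -0.19 ± 0.05 with Drug_CN27 (adjusted p = 0.00806, and 0.0739 without vehicle replicate 1). The first was -0.0040 with quantile normalization (adjusted p = 0.944) and -0.13 with an equal table sum. PSME4, a monomeric nuclear activator, had 36.2 and 32.7 TPM in vehicle, 35.1 and 32.8 TPM under Drug_0120 and 33.4 and 31.7 TPM under Drug_CN27. All 3 groups overlapped, with intervals of -0.20 to 0.16 and -0.26 to 0.10 for the compounds against vehicle; with Drug_CN27 it was called lower with median-of-ratios scaling, quantile normalization and the GC correction (-0.25, -0.19 and -0.35). The inhibitor-like regulator PSMF1 had 66.7 and 68.4 TPM in the vehicle libraries, 67.2 and 77.7 TPM in the Drug_0120 libraries and 65.4 and 68.8 TPM in the Drug_CN27 libraries. These also overlapped, with intervals of -0.08 to 0.27 and -0.19 to 0.17, and with Drug_0120 it was called higher with median-of-ratios scaling, quantile normalization and an equal table sum (0.22, 0.27 and 0.28).

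The 4 PSMG proteins are chaperones that pair up, PSMG1 with PSMG2 and PSMG3 with PSMG4, to build the outer ring. With Drug_0120 all 4 fell, against 45.5% of all genes lower, with a median of -0.39 (-0.29 relative to all genes). Of these falls, however, PSMG1 alone was called in all 5 scalings. With an equal table sum PSMG2, PSMG3 and PSMG4 were at -0.12, -0.17 and -0.26 (adjusted p = 0.134, 0.0573 and 0.0777), and PSMG3 was positive with the GC correction (0.10). PSMG1 had 49.5 and 51.0 TPM in vehicle, 26.8 and 24.1 TPM under Drug_0120 and 39.6 and 38.9 TPM under Drug_CN27, with falls of -0.96 ± 0.07 (adjusted p = 2.92e-06) and -0.35 ± 0.07 (adjusted p = 0.00247). Its partner PSMG2 had 43.9 and 43.3 TPM (vehicle), 34.1 and 36.4 TPM (Drug_0120) and 46.6 and 44.2 TPM (Drug_CN27), a fall of -0.30 ± 0.07 with Drug_0120 (adjusted p = 0.00282) and an interval of -0.10 to 0.21 with Drug_CN27. Both members of this pair lay below vehicle under Drug_0120. PSMG3 had 84.0 and 84.7 TPM in the vehicle libraries, 63.4 and 68.4 TPM in the Drug_0120 libraries and 57.2 and 65.8 TPM in the Drug_CN27 libraries, with changes of -0.35 ± 0.08 (adjusted p = 0.0027) and -0.45 ± 0.08 (adjusted p = 0.000895). PSMG4 had 35.4 and 40.5 TPM in vehicle, 27.5 and 28.0 TPM under Drug_0120 and 30.9 and 41.2 TPM under Drug_CN27. The Drug_CN27 libraries of PSMG4 lay on both sides of the vehicle level. Its fall with Drug_0120 was -0.43 ± 0.13 (adjusted p = 0.0114, and 0.0583 without vehicle replicate 2), and with Drug_CN27 it passed only without Drug_CN27 replicate 2 (-0.29, adjusted p = 0.0347).

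Between the compounds as they were given, 34 of 46 genes were higher with Drug_CN27 than with Drug_0120, 2 were lower and 10 did not pass the test. Of all tested genes 75.2% were called, 51.7% higher and 23.5% lower, and the median over the family was 0.51, or 0.25 relative to all genes. The 7 of 46 genes at least 2-fold higher were PSMA7, PSMB6, PSMB9, PSMC3, PSMD6, PSME1 and PSME2, a share not above the 17.7% of all genes. None was 2-fold lower, against 3.97% of all genes. The largest differences were 1.78 ± 0.06 for PSME1 (adjusted p = 8.85e-08), 1.55 ± 0.16 for PSMB9 (adjusted p = 3.58e-05), 1.40 ± 0.06 for PSMC3 (adjusted p = 2.57e-07) and 1.38 ± 0.07 for PSME2 (adjusted p = 4.95e-07). PSMA1 and PSMC1 were the lower ones, PSMC1 at -0.19 ± 0.07 (adjusted p = 0.0298), which lost its call without any 1 library other than Drug_CN27 replicate 1; the count lower was 1 when either vehicle or either Drug_0120 library was left out. The count of 2 lower depends on the scaling. It was 11 with median-of-ratios scaling and with quantile normalization, 6 with an equal table sum and 9 with the GC correction. In all 5 scalings 24 genes were higher and 2 lower, and the share of all genes under this rule was not counted. The PSMG4 difference of 0.35 was 0.55 without Drug_CN27 replicate 1 and 0.15 without Drug_CN27 replicate 2 (adjusted p = 0.203), and it did not pass under any of the 4 other scalings (adjusted p from 0.211 to 0.713).

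Relative to the median of all tested genes, the class medians with Drug_0120 were lowest for PSME (-0.81), then PSMB (-0.51), PSMA (-0.47), PSMD (-0.38), PSMC (-0.31) and PSMG (-0.29). Each was below 0 in all 5 scalings. With Drug_CN27 they ran from -0.37 (PSMG) to -0.08 (PSMD), and that of PSMD was at 0.00 with quantile normalization. Within each of these classes the genes spread more widely with Drug_0120 than the class medians did. PSMA changes ran from -1.03 to -0.11, PSMB changes from -1.28 to 0.06 and PSMC changes from -1.70 to 0.27. PSMD changes ran from -1.18 to 0.52, PSME changes from -1.99 to -0.02 and PSMG changes from -0.96 to -0.30.

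**Figure D4:**
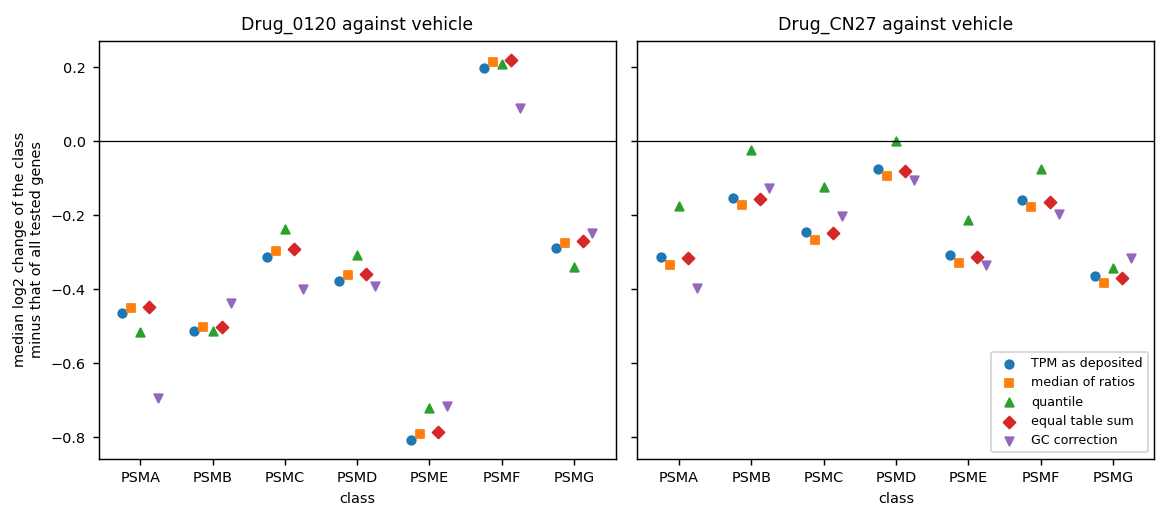
Median log2 change of each class against vehicle minus the median of all tested genes (vertical axis), for the TPM as deposited and under 4 other scalings or corrections (symbols). PSMA, PSMB, PSMC, PSMD, PSME and PSMG lie below 0 under every symbol with Drug_0120, PSME lowest; with Drug_CN27 the same classes also lie below 0, apart from PSMD at 0.00 with quantile normalization.

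Transcript GC content moved with the changes. Over the 46 genes Pearson's r between GC of the longest coding transcript and the change was -0.43 with Drug_0120 (Spearman's rho = -0.41) and -0.27 with Drug_CN27 (rho = -0.24), against -0.24 and -0.20 over 13504 genes; these describe genes measured in the same libraries, and genes are not independent. In the lower 23 by GC (36.8 to 49.1%), 16 fell and 4 rose with Drug_0120. In the upper 23 (49.9 to 60.1%), 21 fell and none rose. With a correction for GC content 34 genes fell and 3 rose with Drug_0120, against 37 and 4 as deposited. The shares of all genes called in the same GC ranges, or after the correction, were not counted. These counts therefore do not show whether proteasome genes differ from other genes of like GC content.

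**Figure D5:**
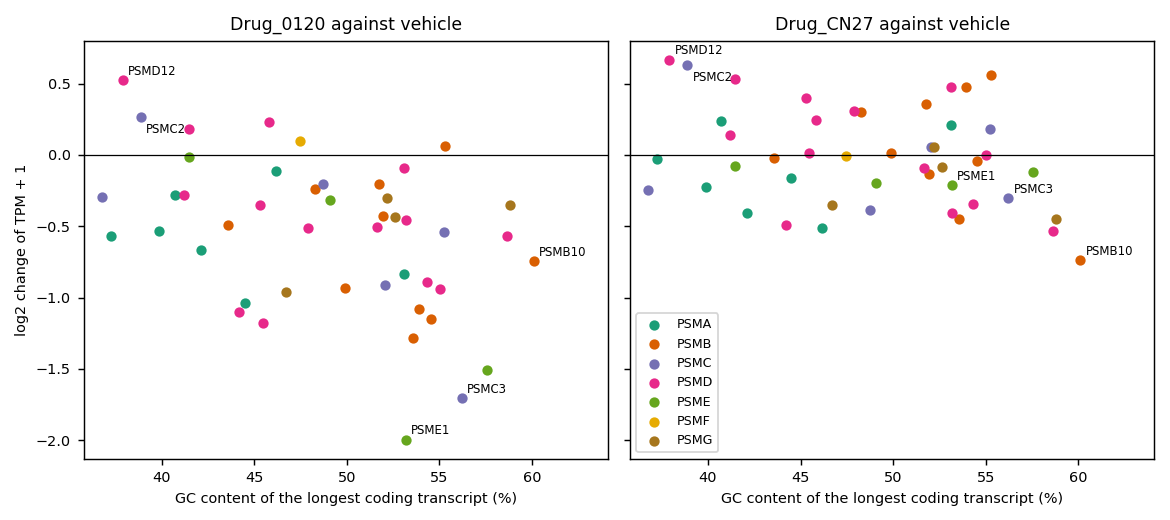
GC content of the longest coding transcript (percent, horizontal axis) and log2 change against vehicle (vertical axis) of the 46 tested proteasome genes, coloured by class, for each compound. The 4 genes that rose with Drug_0120 lie in the lower 23 by GC, PSMD12 and PSMC2 among them, and PSMC3, PSME1 and PSME2 lie in the upper 23.

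Genes that act on the proteasome were read from lists chosen with earlier results of these data known. Of 9 genes of the transcriptional control of proteasome genes, 7 rose and 2 fell with Drug_0120, or 77.8% and 22.2% against 36.0% and 45.5% of all genes. Their median change was 0.99, which is 1.09 relative to all genes. With Drug_CN27 8 rose and none fell, 88.9% higher against 43.7% of all genes, with a median of 0.56, or 0.41 relative to all genes. NFE2L1, the factor that drives proteasome genes, had 99.6 and 96.0 TPM in vehicle, 163 and 158 TPM under Drug_0120 and 176 and 185 TPM under Drug_CN27. Its related factor NFE2L2, the main regulator of the oxidative stress response, had 35.4 and 35.7 TPM in the vehicle libraries, 78.5 and 76.0 TPM in the Drug_0120 libraries and 68.2 and 65.2 TPM in the Drug_CN27 libraries. Both treated groups lay above vehicle for each, at changes of 0.71 ± 0.06 and 0.88 ± 0.06 for NFE2L1 (adjusted p = 4.16e-06 and 3.83e-06) and 1.10 ± 0.06 and 0.89 ± 0.06 for NFE2L2 (adjusted p = 4.1e-07 and 4.87e-06). The small MAF proteins, their binding partners, rose as well. MAFF had 8.22 and 9.22 TPM (vehicle), 83.1 and 89.2 TPM (Drug_0120) and 16.2 and 15.7 TPM (Drug_CN27), a change of 3.17 ± 0.08 with Drug_0120 (adjusted p = 1.14e-08) and 0.80 ± 0.08 with Drug_CN27 (adjusted p = 4.4e-05). MAFG rose by 1.81 and 1.23 and MAFK by 1.74 and 0.28, the last of which did not pass with vehicle replicate 1 left out (adjusted p = 0.0529) or with median-of-ratios scaling (0.11, adjusted p = 0.24). DDI2, the protease that activates NFE2L1, fell with Drug_0120 (-0.44), and so did NGLY1, which removes its sugars (-0.42).

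Of 11 factors that bind or assemble the proteasome, 4 rose and 4 fell with Drug_0120 and 7 rose and 3 fell with Drug_CN27. These are 36.4% higher and 36.4% lower with Drug_0120, against 36.0% and 45.5% of all genes, and 63.6% and 27.3% with Drug_CN27, against 43.7% and 26.6%. POMP, the chaperone that matures the core, had 101 and 102 TPM in vehicle, 103 and 112 TPM under Drug_0120 and 117 and 97.6 TPM under Drug_CN27. It did not pass the test with either compound, with intervals of -0.12 to 0.27 and -0.13 to 0.27; without Drug_CN27 replicate 2 it was higher (0.20, adjusted p = 0.037), with Drug_0120 it was called higher with quantile normalization (0.30) and an equal table sum (0.26), and with Drug_CN27 lower with the GC correction (-0.30). UBE3C, a ubiquitin ligase of the proteasome, had 103 and 97.3 TPM in the vehicle libraries, 39.6 and 36.8 TPM in the Drug_0120 libraries and 82.7 and 80.3 TPM in the Drug_CN27 libraries, with falls of -1.37 ± 0.06 (adjusted p = 1.76e-07) and -0.29 ± 0.06 (adjusted p = 0.00346). AKIRIN2, which brings proteasomes into the nucleus, had 44.3 and 44.8 TPM (vehicle), 81.7 and 79.6 TPM (Drug_0120) and 115 and 108 TPM (Drug_CN27), with rises of 0.84 ± 0.06 (adjusted p = 2.14e-06) and 1.30 ± 0.06 (adjusted p = 8.05e-07). ZFAND5 and ZFAND2A, stress-induced proteasome-binding proteins, rose with both compounds, by 0.97 and 0.75 with Drug_0120 and 0.83 and 0.77 with Drug_CN27. The ubiquitin receptor ADRM1 fell with Drug_0120 (-0.73, and -0.099 with the GC correction), and ECPAS, which ties proteasomes to membranes, rose with Drug_CN27 (0.59, and 0.39 with the GC correction). With the GC correction the rise of ZFAND5 with Drug_CN27 was 0.53. SEM1, a small lid subunit, was not analysed here.

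Of 14 genes that supply ubiquitin or deliver substrates, 3 rose and 7 fell with Drug_0120, and 8 rose and 2 fell with Drug_CN27. With Drug_0120 these are 21.4% higher, against 36.0% of all genes, and 7 of 14 lower, against 45.5%. The shares were 57.1% and 14.3% with Drug_CN27, against 43.7% and 26.6%. UBB, which encodes ubiquitin as a chain of repeats, had 1503 and 1508 TPM in vehicle, 645 and 629 TPM under Drug_0120 and 1487 and 1592 TPM under Drug_CN27. Its Drug_0120 libraries lay below all others, and the Drug_CN27 libraries overlapped vehicle. It fell with Drug_0120 (-1.24 ± 0.06, adjusted p = 1.45e-07). The activating enzyme UBA1 (-0.996) and the shuttle protein UBQLN4 (-0.94) also fell with Drug_0120, and were at -0.63 and -0.62 with the GC correction. UBQLN1 fell with Drug_0120 and rose with Drug_CN27 (-0.67 and 0.86), and UBQLN2 rose with both (0.73 and 0.89).

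Of 8 tested genes of peptide transport and interferon control, which act beside the immunoproteasome, 3 rose and 1 fell with Drug_0120 and 5 rose and 1 fell with Drug_CN27. The shares were 37.5% higher and 12.5% lower with Drug_0120, against 36.0% and 45.5% of all genes, and 62.5% and 12.5% with Drug_CN27, against 43.7% and 26.6%. The peptide transporter subunit TAP2 fell with Drug_0120 (-1.36 ± 0.11, adjusted p = 5.83e-06). NLRC5, the activator of class I genes, is counted among the genes that rose there, at a change of 1.24. That change was 2.78 with a smaller addition to the TPM, and 0.03 with Drug_CN27. These values place NLRC5 under 1 TPM in vehicle and with Drug_CN27. It thus passed the filter only through Drug_0120, and its p is not given. IRF1, an interferon-response factor known to drive PSMB9, had 0.956 and 1.08 TPM in vehicle, 2.64 and 2.77 TPM under Drug_0120 and 2.65 and 2.04 TPM under Drug_CN27 and rose with both compounds (0.87 and 0.72), while PSMB9 fell with Drug_0120. The class I light chain B2M rose with Drug_0120 (0.80), and TAPBP, ERAP1 and TAP1, which load, trim and transport peptides, rose with Drug_CN27 (0.94, 0.89 and 0.56); the rise of ERAP1 was 0.58 with the GC correction.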

How the data were processed

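The authors deposited TPM per gene, 1 column a library; STAR, StringTie and the build hg19 are named per the submitters' processing notes, and their versions, the annotation, the strand setting and any filter are not stated in the sources used here. Of 20315 rows, 18 duplicates from the pseudoautosomal regions were dropped, and 27 symbols turned into dates were restored from their identifiers. The deposited TPM were analysed on the log2(TPM + 1) scale with limma 3.58.1 (R 4.3.3; trended eBayes), using 1 fit of all 6 libraries with no replicate block. Genes needed at least 1 TPM in at least 2 libraries; Benjamini-Hochberg adjustment covered all 13606. Errors after ± are SE and intervals 95% from this fit, which has 3 residual and 5.33 prior degrees of freedom. Since separate cultures are not stated, p-values cover only the spread of these libraries, possibly technical. The members and lists were chosen with earlier results of these data known, and 2-fold counts with them seen. Named genes were the highest and lowest of each class per compound, the catalytic pairs, PSME, PSMF and PSMG genes, up to 4 called genes a list, and further single values; some genes that this rule names are not reported here. GC content and overlaps came from GENCODE release 29, and promoters from RefSeq GRCh38.p14, so no hg19 coordinates are given. Of the tested members, 24 overlap a gene on the opposite strand and 12 have a named pseudogene. The fits were tested on simulated data, and 17 alternatives were run. The depth of the libraries is unknown.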

Additional observations from a re-analysis of the deposited data

How the results depend on the processing

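No alternative turned the direction of a count, and TPM gives no depth, so what depth limits is unknown. With Drug_0120 against vehicle, 41 proteasome genes were called; 8 were higher with quantile normalization, and leaving out 1 library in turn gave 37 to 41 called, 2 to 4 higher (2 without Drug_0120 replicate 2) and 34 to 37 lower. With Drug_CN27 against vehicle, 6 were higher with median-of-ratios scaling and 9 with the GC correction, and leave-one-out gave 24 to 30 called, 10 to 14 higher and 14 to 18 lower. For Drug_CN27 against Drug_0120, the count lower was 11 with median-of-ratios scaling, 11 with quantile normalization, 6 with an equal table sum, 1 on the 4 libraries compared, 9 with the GC correction and 10 with the replicate block and GC correction, and leave-one-out gave 33 to 36 called, 32 to 34 higher and 1 to 2 lower. The cause of these shifts was not tested. Summed TPM became 7257 (quantile) and 9518 (equal sum) in vehicle, 5757 (median of ratios), 5906 (quantile) and 7303 (equal sum) with Drug_0120, and 6987, 7366 and 9657 in the same order with Drug_CN27. Shares of PSMB8, PSMB9 and PSMB10 under leave-one-out are the single-library values given above.

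The libraries share only a replicate number. Deviations of same-numbered libraries correlated at 0.16, 0.15 and 0.11 in the 3 pairs of groups, over 2 numbers only. With the replicate block, 42 genes were called with Drug_0120 (41 without), 32 with Drug_CN27 (30 without) and 38 between the compounds (36 without). With the block PSMA1 was called lower with Drug_0120 (adjusted p = 0.0286), and PSMB5 and PSME2 lower with Drug_CN27 (adjusted p = 0.0292 and 0.04).

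Single genes that were called as reported or under the alternative changed sign as follows; genes called in neither are not listed. With Drug_0120 against vehicle and quantile normalization, PSMA1 was 0.18, PSMA3 0.0033, PSMB1 0.11, PSMB4 0.0075, PSMD4 0.26 and ERAP1 0.30. With the GC correction, alone or with the replicate block, PSMG3 was 0.10 and TAP1 0.30, and with both corrections PSMD4 was 0.085. With Drug_CN27 against vehicle, the GC correction, alone or with the block, gave PSMA3 -0.046, PSMD5 -0.14, PSMD6 -0.19 and POMP -0.30, and median-of-ratios scaling gave PSMD6 -0.17. For Drug_CN27 against Drug_0120, median-of-ratios scaling gave PSMA4 -0.045, PSMB5 -0.0086, PSMB10 -0.27, PSMC6 -0.25, PSMD3 -0.27, PSMD7 -0.28, PSMD13 -0.25, PSME3 -0.18, ZFAND2A -0.28 and NFE2L1 -0.13. Quantile normalization gave PSMB5 -0.046, PSMB10 -0.32, PSMC6 -0.15, PSMD3 -0.26, PSMD7 -0.27, PSMD13 -0.22, PSME3 -0.18 and NFE2L1 -0.13. The GC correction, alone or with the block, gave PSMB10 -0.46, PSMD3 -0.39, PSMD7 -0.18, PSMD13 -0.21, ZFAND2A -0.25 and NFE2L1 -0.15, and with both PSME3 was -0.077. An equal table sum gave PSMD7 -0.16 and NFE2L1 -0.0088. Over the members, 724 of the gene values with Drug_0120, 722 with Drug_CN27 and 694 between the compounds kept their side of the threshold. These kept their direction too, except where neither value was called. In the same order, 41, 29 and 42 lost the call, 8, 23 and 20 gained it, and 8, 7 and 25 changed sign with a call in either. The other filters, the fit without a trend and the replicate block leave the size of a change as it was and can only move its p. Much of the agreement in direction was thus fixed in advance.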

Other observations

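Setting a level against the core within the same library removes most of any factor common to that library, though quantile normalization and the GC correction, which can change such differences, were not applied to the values here. Each value here is log2 of the TPM of a gene, with no 1 added, minus a reference for that library. The reference is the median, on the same scale, of the 14 standard core subunits (PSMA1 to PSMA7 and PSMB1 to PSMB7). The ATPase PSMC3 stood at 0.30 and 0.22 in vehicle, -0.68 and -0.78 with Drug_0120 and -0.08 and 0.04 with Drug_CN27. The activator PSME1 stood at 0.06 and -0.05 in vehicle, -1.30 and -1.26 with Drug_0120 and -0.16 and -0.19 with Drug_CN27. Both were thus lower against the core with Drug_0120 than in any other library. The lid subunit PSMD12 went from -2.30 and -2.46 in vehicle to -1.06 and -1.18 with Drug_0120 and -1.61 and -1.73 with Drug_CN27. The ATPase PSMC2 went from -0.78 and -0.97 to 0.11 and 0.13 with Drug_0120 and -0.15 and -0.27 with Drug_CN27. For these genes both treated groups lay above vehicle, Drug_0120 furthest. The cap PSME4 and the regulator PSMF1, whose TPM did not pass the test, were also higher against the core with Drug_0120, by 0.71 and 0.82. Since 13 of the 14 core genes fell, the reference fell too, and a gene whose TPM changed little stands higher on this measure. The core genes themselves lay on both sides, from 0.62 (PSMA1) to -0.56 (PSMB3).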
